A study of Homo sapiens with 3 samples.

Results

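The transcriptome of SK-N-BE(2) cells given arsenic trioxide (ATO) at 4 µM for 12 h was compared with that of control cells. SK-N-BE(2) is an established human neuroblastoma line with amplified MYCN, so the values describe 1 line and not a tumour. The series had 3 libraries, 1 each of cells labelled Ctrl, of cells given 2 µM ATO and of cells given 4 µM ATO. No label says what the control cells received in place of ATO. The deposited table gave FPKM (fragments scaled by transcript length and by the mapped total of the library) for 34520 rows. Rows whose 3-library mean reached 1 FPKM were considered, which left 12433 of the 34520. The response of a row was the log2 ratio of FPKM + 1 at 4 µM over control, called the log2 fold here. A row was called higher at a log2 fold of 1 or more and lower at -1 or less, that is at least 2-fold on this scale. With 1 library a group no value has a replicate check, so neither p-values nor errors are printed, and a difference below may come from the treatment or from the pair of cultures.

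As background, arsenite binds closely spaced cysteine thiols, and cells answer such thiol stress with several gene programmes. KEAP1, a cysteine-rich sensor, releases the transcription factor NRF2, which turns on glutathione, thioredoxin and NADPH genes. Misfolded protein frees HSF1, which drives heat shock genes, while eIF2α kinases raise translation of ATF4, which drives amino acid and aminoacyl-tRNA genes. Metal ions act on the factor MTF1, whose targets include metallothioneins. In neuroblastoma with amplified MYCN, the N-Myc protein and a set of adrenergic transcription factors (among them PHOX2A, HAND1, HAND2, GATA3 and ISL1) maintain the sympathetic neuronal state.

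Sequences 250 bases before to 50 after the annotated start (RefSeq, GRCh38.p14) are shown for 6 genes, for each of 6 motifs the called gene with the largest fold that held a match and was not already shown, 1 chromosome being left out of the choice, as examples of what the motif counts at the end rest on. A match says nothing of whether the factor acts on the gene. Capitals mark the match on either strand. In MT2A, a metallothionein gene (chr16:56608334-56608633, plus strand), they mark TGACNNNGC, the core of the antioxidant response element that NRF2 binds. In MT1X, another metallothionein gene (chr16:56682220-56682519, plus strand), they mark TGCACNC or TGCGCNC, the core of the metal response element, at 4 places. In OSGIN1, an oxidative stress gene (chr16:83952990-83953289, plus strand), they mark TGANTCA, the AP-1 site, which can also lie inside a TGACNNNGC match.
MT2A: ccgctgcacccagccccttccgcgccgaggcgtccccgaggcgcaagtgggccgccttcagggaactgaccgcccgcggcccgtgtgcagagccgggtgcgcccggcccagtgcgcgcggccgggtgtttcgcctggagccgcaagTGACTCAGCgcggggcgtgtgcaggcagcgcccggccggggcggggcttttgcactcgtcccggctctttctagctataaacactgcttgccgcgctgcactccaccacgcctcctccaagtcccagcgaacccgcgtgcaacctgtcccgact
MT1X: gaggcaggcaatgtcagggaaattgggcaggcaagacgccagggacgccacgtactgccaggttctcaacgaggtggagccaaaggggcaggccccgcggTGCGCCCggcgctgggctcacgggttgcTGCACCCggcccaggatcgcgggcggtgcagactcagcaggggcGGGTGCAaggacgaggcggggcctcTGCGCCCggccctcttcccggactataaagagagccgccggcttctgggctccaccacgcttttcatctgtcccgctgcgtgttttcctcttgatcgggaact
OSGIN1: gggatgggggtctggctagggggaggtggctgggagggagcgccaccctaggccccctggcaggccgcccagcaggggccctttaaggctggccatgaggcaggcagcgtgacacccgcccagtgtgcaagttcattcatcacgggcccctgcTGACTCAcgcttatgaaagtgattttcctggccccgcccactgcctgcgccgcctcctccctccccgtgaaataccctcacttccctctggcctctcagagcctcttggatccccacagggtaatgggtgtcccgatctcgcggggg

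In CHAC1, which encodes a glutathione-degrading enzyme (chr15:40953221-40953520, plus strand), capitals mark TGATGNAA, the start of the composite element of ATF4 and C/EBP factors. In HSPA8, the constitutive HSP70 gene (chr11:123062087-123062386, minus strand), they mark a heat shock element (GAA, any 2 bases, TTC, any 2 bases, GAA) at 2 places. For the genes called lower the motif was CACGTG, the E-box that N-Myc with MAX binds, and the gene with the largest decrease and a match was SULF2, which encodes a sulfatase of heparan sulfate (chr20:47786047-47786346, minus strand).
CHAC1: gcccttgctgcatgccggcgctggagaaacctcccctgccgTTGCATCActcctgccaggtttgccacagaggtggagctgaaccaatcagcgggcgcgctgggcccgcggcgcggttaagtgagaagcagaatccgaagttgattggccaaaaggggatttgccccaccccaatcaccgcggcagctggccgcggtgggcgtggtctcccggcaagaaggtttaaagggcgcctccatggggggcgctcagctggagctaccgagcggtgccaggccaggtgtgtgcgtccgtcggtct
HSPA8: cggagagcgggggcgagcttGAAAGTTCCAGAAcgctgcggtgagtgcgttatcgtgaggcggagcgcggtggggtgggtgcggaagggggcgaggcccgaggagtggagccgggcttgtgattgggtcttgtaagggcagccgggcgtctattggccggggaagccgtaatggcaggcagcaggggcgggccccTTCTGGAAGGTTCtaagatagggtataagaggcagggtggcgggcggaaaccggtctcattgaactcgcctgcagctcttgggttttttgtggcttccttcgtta
SULF2: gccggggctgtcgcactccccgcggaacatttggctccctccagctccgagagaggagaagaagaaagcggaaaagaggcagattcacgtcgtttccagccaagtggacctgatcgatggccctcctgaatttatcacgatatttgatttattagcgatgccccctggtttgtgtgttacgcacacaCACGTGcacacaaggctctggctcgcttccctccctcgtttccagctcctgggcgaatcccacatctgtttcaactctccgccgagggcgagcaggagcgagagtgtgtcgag

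Across the considered rows, 521 were higher (4.19% of 12433) and 655 were lower (5.27%) at 4 µM, 9.46% in all. The middle of the distribution lay slightly below 0, with a median log2 fold of -0.13 and quartiles of -0.45 and 0.23. The extremes were lopsided the other way, with 23 rows at a log2 fold of at least 3 and 2 rows at -3 or less. At an absolute value of at least 2 the numbers were 87 higher and 54 lower. After median-of-ratios scaling between libraries the median of all rows was -0.0033 and the split was 719 higher and 485 lower. Directions near 0 therefore depend on the scaling, and list medians below are to be read beside the -0.13 of all rows. Counts of called members are likewise to be read beside the 4.19% higher and 5.27% lower of all rows. Counts of members below 0 are to be read beside the 59.9% of all rows that were below 0.

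**Figure D1:**
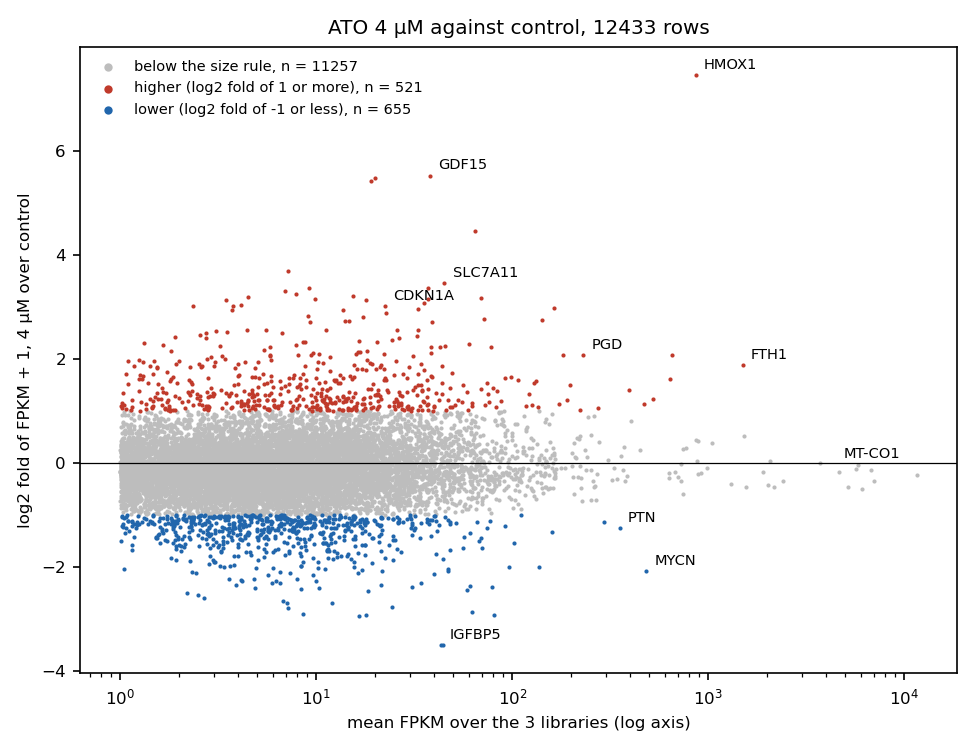
Each point is 1 of the 12433 rows, placed by its mean FPKM over the 3 libraries (x, log axis) and its log2 fold of FPKM + 1 at 4 µM over control (y). Red points are the 521 higher rows and blue points the 655 lower rows; the furthest point upward is HMOX1 at 7.44.

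Rows with a high 3-library mean were more often among the higher rows, but that mean includes the 4 µM value. An increase thus lifts a row towards the top class and a decrease lowers it. HMOX1, for example, had 9.17 FPKM in the control and is in the top class through its values with ATO. The contrast between classes is therefore partly set by how they were formed. Of the 212 rows averaging 100 FPKM or more, 23 were higher and 7 lower, 10.8% and 3.30%. Of the 3406 rows with a mean between 1 and 3 FPKM, 110 were higher and 167 lower, 3.23% and 4.90%. The pseudocount damps the folds of low rows, so the total share called in the lowest class is not comparable with that in the highest. In terms of the summed FPKM of a library, the 521 higher rows held 2.80% (control), 5.59% (2 µM) and 9.72% (4 µM). The 655 lower rows held 5.13%, 3.19% and 1.77% of it. Both sets were chosen by their change from control to 4 µM, so the direction of these shares between those libraries follows from the size rule. The shares show only how much of the FPKM sum such rows made up.

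Called rows by class are given beside the 4.19% higher and 5.27% lower of all rows. Long intergenic noncoding (LINC) transcripts had a median of -0.33 over 57 rows, with 1 higher (1.75%) and 4 lower (7.02%). Antisense and divergent transcripts had a median of -0.28 over 199 rows, with 4 higher (2.01%) and 11 lower (5.53%). Read-through rows, which join neighbouring genes, had 9 of 54 higher (16.7%) and 5 lower (9.26%). Rows without a symbol had 45 of 657 higher and 45 lower (6.85% each), and pseudogenes 17 of 513 higher (3.31%) and 22 lower (4.29%). The shares of pseudogenes and the lower share of antisense rows lay near those of all rows. LINC and read-through shares rest on few rows, and no class difference was tested. Because it is not given whether counting used strand, reads of antisense genes cannot be separated from those of their partners.

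The size rule and the filter each passed through a dense part of the data. ZNF836 was just inside the filter with a mean of 1.0003 FPKM, and SPTSSB just outside it with 0.9995 FPKM, from 1.78 FPKM (control) to 0.426 FPKM (4 µM). LRIF1 was just called higher at a log2 fold of 1.0015, and GSTM3, a glutathione transferase gene with 5.94, 10.6 and 12.9 FPKM in the 3 libraries, just missed at 0.9998. CADM3 was just called lower at -1.0012, and SELENOH just missed at -0.9985. No meaning attaches to which side of the line such rows fell.

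The largest gains of transcript in absolute terms were those of HMOX1, of both ferritin genes and of HSPA8. HMOX1, the gene of the inducible heme-degrading oxygenase, had 9.17, 808 and 1769.7 FPKM in the control, 2 µM and 4 µM libraries, the order used for all sets of 3 values. The ferritin heavy chain gene FTH1 had 589.7, 1723 and 2180.25 FPKM, and the light chain gene FTL had 248, 674 and 1045 FPKM. HSPA8 had 333, 551 and 1018 FPKM (log2 fold 1.61). These 4 genes gained between 685 and 1760.5 FPKM each. A call as higher or lower fixes the order of the control and 4 µM values, so only the place of the 2 µM value is free. In each of the 4 it lay between them, as in 502 of the 521 higher rows. Ferritin genes have many processed pseudogenes, so how reads were shared among the copies is uncertain.

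Below them, HSP90AA1, the inducible HSP90 gene, had 297, 574 and 694 FPKM. UCHL1, a neuronal ubiquitin hydrolase gene, had 197, 466 and 522 FPKM. The pentose phosphate enzyme gene PGD had 91.9, 208 and 388 FPKM, a log2 fold of 2.07. These, with the HSP70 genes HSPA1A and HSPA1B, passed the size rule. GAPDH and ACTB, often used as reference genes, were also among the 12 largest gains, with log2 folds of 0.51 and 0.39 that did not pass it.

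Of the 12 largest losses in FPKM, 9 were genes of the mitochondrial genome, none of which passed the size rule. MT-ATP8 had 7135, 5963 and 5055 FPKM, a log2 fold of -0.50, and it overlaps MT-ATP6 (-0.46), so the values of the pair are not independent. MT-CO1 had 12502, 11697 and 10683 FPKM (-0.23). The 13 mitochondrial genes had a median of -0.19, close to that of all rows, and MT-CO2, MT-ND4 and MT-ND4L were above 0 with median-of-ratios scaling. The other 3 large losses did pass the rule. MYCN had 832, 412 and 197 FPKM (-2.07), PTN, the gene of the growth factor pleiotrophin, had 474, 385 and 198 FPKM (-1.25), and DKK1, a secreted Wnt antagonist gene, had 388, 318 and 176 FPKM (-1.14).

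**Figure D2:**
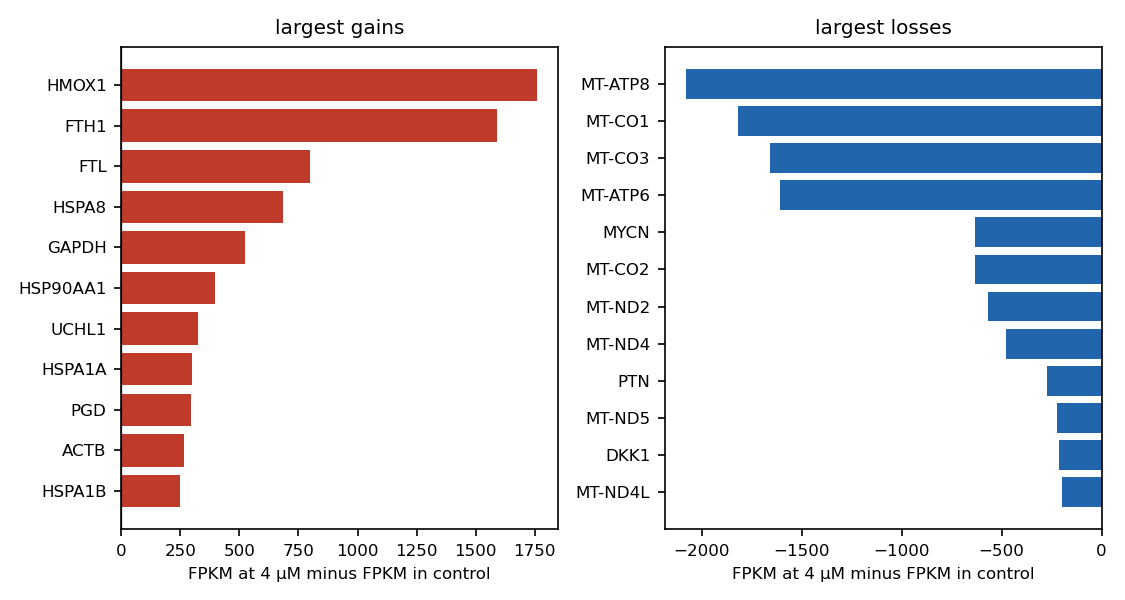
Bars give FPKM at 4 µM minus FPKM in the control for 11 of the 12 largest gains (left) and the 12 largest losses (right), with 1 library a side and no error. HMOX1 leads the gains at 1760.5 FPKM, and genes of the mitochondrial genome make up 9 of the 12 losses.

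Ranked by log2 fold, the 12 leading increases ended with SAT1 at 3.16, and ranks 13 to 40 ran from FLNC (3.15) to GABARAPL1 (2.34). Their roles spread over redox defence, protein folding, the integrated stress response, extracellular proteolysis and signalling. FLNC, which encodes an actin-crosslinking filamin, had 8.54, 18.6 and 83.8 FPKM. HTRA3, a secreted serine protease gene, had 0.0574, 2.11 and 8.27 FPKM (3.13), so it was considered only through its values with ATO. GBE1, the glycogen branching enzyme gene, had 7.81, 24.0 and 67.1 FPKM (2.95). SPHK1, whose product makes sphingosine 1-phosphate, had 2.86, 9.75 and 28.5 FPKM (2.93). In each of these 4 genes the 2 µM value lay between the control and 4 µM values, as in 502 of the 521 higher rows.

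Signalling genes in the same ranks included PTPRN, a secretory granule phosphatase-like gene, with 3.28, 13.7 and 27.3 FPKM (2.72). RIT1, a Ras-like GTPase gene, had 10.0, 25.5 and 63.9 FPKM (2.56). TNFRSF12A, the receptor gene of the cytokine TWEAK, had 6.46, 27.8 and 42.8 FPKM (2.55). The 2 µM library was thus closer to the 4 µM library for TNFRSF12A than for RIT1 in FPKM. Matrix protease genes were present too. MMP10, stromelysin 2, had 1.20, 3.50 and 11.9 FPKM (2.55), and MMP1, interstitial collagenase, followed outside these ranks with 22.6, 42.9 and 115 FPKM (2.29).

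The remaining genes of these ranks were of more varied kinds. MIR22HG, the host transcript of miR-22, had 2.95, 8.37 and 22.3 FPKM (2.56). SEL1L3 had 9.18, 34.6 and 53.9 FPKM (2.43), and TRIM16L had 6.87, 26.3 and 39.5 FPKM (2.36), a gene so like TRIM16 (1.89) that reads may be shared. FER1L6 was low in the control, at 0.297 FPKM, and had 6.10 FPKM at 4 µM. LINC02561 was listed at 0 in the control and at 1.35 and 4.36 FPKM with ATO. GADD45G, a stress-induced growth arrest gene, had 0.487, 2.57 and 7.46 FPKM (2.51), and it too passed the filter only through the treated libraries. In all, 104 of the 521 higher rows had under 1 FPKM in the control.

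Ranks 13 to 40 of the decreases ran from LRRN3 (-2.45) to MYCN (-2.07). LRRN3, a neuronal leucine-rich repeat gene, had 34.7, 14.98 and 5.53 FPKM. TENM4, a teneurin adhesion gene, had 10.5, 2.88 and 1.18 FPKM (-2.40). SCGN, which encodes the calcium sensor secretagogin of neuroendocrine cells, had 55.8, 26.8 and 9.94 FPKM (-2.38). APLNR, the apelin receptor gene, had 99.4, 63.8 and 18.4 FPKM (-2.37). For all 4 the 2 µM value lay between the control and 4 µM values, as in 634 of the 655 lower rows. APLNR kept more of its level at 2 µM than TENM4 did.

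Other surface and secreted genes followed. PODXL2, a sialomucin gene, had 37.9, 19.4 and 6.65 FPKM (-2.35), and the growth factor gene HGF had 15.3, 6.21 and 2.46 FPKM (-2.23). IL11RA, the interleukin 11 receptor gene, had 10.6, 4.88 and 1.59 FPKM (-2.16), whereas its ligand gene IL11 was higher, with 0.508, 2.49 and 4.603 FPKM (1.89). LRRC17 had 26.7, 16.8 and 5.41 FPKM (-2.11), and the serotonin receptor gene HTR2B had 11.7, 5.94 and 1.98 FPKM (-2.09). The Src family kinase gene BLK was nearly as low at 2 µM as at 4 µM, at 5.57, 0.869 and 0.529 FPKM (-2.10). MND1, a meiotic recombination gene, showed the opposite order of steps, with 6.57, 4.55 and 0.4996 FPKM (-2.34). Of the 655 lower rows, 122 had under 1 FPKM at 4 µM.

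**Figure D3:**
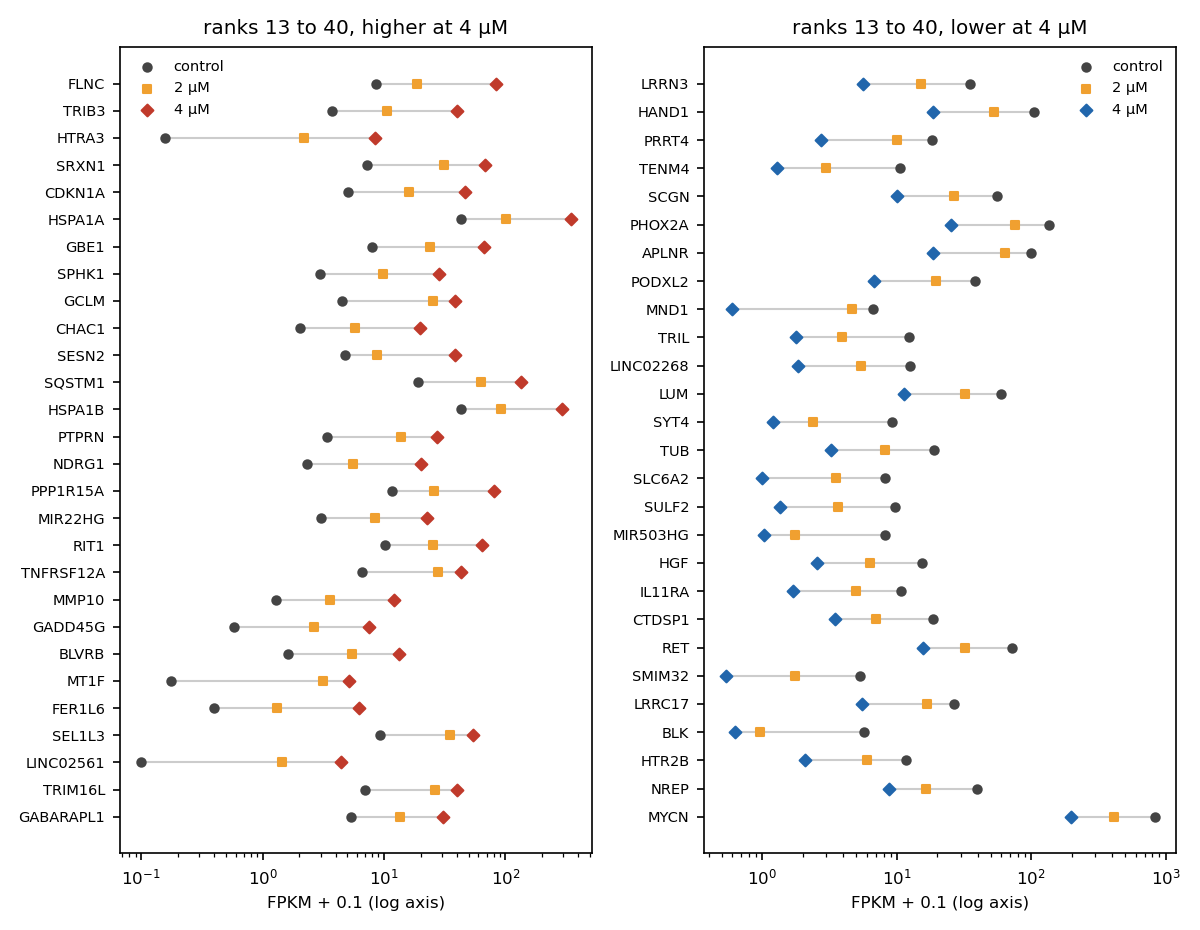
FPKM + 0.1 (x, log axis) of the genes ranked 13 to 40 by log2 fold among increases (left) and decreases (right), in the control (circle), 2 µM (square) and 4 µM (diamond) libraries; 1 decrease is not drawn. The left panel runs from FLNC at 3.15 to GABARAPL1 at 2.34 and the right from LRRN3 at -2.45 to MYCN at -2.07.

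Redox genes past the rule included cystine import, glutathione synthesis and thioredoxin reduction genes. Among 26 considered of 32 listed glutathione and cystine genes, 6 were higher and 1 lower, and the median was 0.12. The cystine transporter gene SLC7A11 had 7.61, 33.8 and 93.7 FPKM (3.46), and its partner subunit SLC3A2 had 19.1, 39.8 and 71.7 FPKM (1.85). GCLM, the modifier subunit of the enzyme that starts glutathione synthesis, had 4.37, 25.1 and 38.7 FPKM (2.89). The catalytic subunit gene GCLC had 5.71, 7.01 and 8.76 FPKM, a log2 fold of 0.54 that did not pass the rule. CHAC1, which breaks glutathione down, had 1.93, 5.70 and 19.6 FPKM (2.82), and GGCT, a gamma-glutamyl cyclotransferase gene, was lower (-1.05).

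For thioredoxin, peroxiredoxin and quinone reductase genes the counts were 5 higher and 1 lower of 22 considered, with a median of 0.06. TXNRD1, cytosolic thioredoxin reductase, had 70.5, 172 and 299 FPKM (2.07), and SRXN1, which restores oxidised peroxiredoxins, had 7.21, 30.9 and 67.9 FPKM (3.07). NQO1 and NQO2, quinone reductase genes, had log2 folds of 1.53 and 1.84. OSGIN1, whose promoter is shown above, had 0.923, 5.45 and 17.2 FPKM (3.24), and thus passed the filter only through the ATO libraries. TXNRD3 was lower (-1.17). TXN, PRDX1 and SOD1 had 0.86, 0.90 and 0.96, short of the rule. Of 18 genes of NADPH supply and the pentose phosphate pathway 6 were higher and 1 lower, with a median of -0.21. Not all of their enzymes make NADPH, and those of TALDO1, TKT, RPE and RPIA do not. Besides PGD the higher ones were ME1 (1.66), IDH1 (1.37), ALDH1L2 (1.26), MTHFD2 (1.10) and TALDO1 (1.00). MTHFD1, the cytosolic folate enzyme gene, was lower (-1.34).

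Of 11 genes in the KEAP1-NRF2 list 5 were higher and 0 lower, with each of the 11 above 0, the lowest at 0.0026, and a median of 0.63. The list held SQSTM1 (2.77), whose product p62 binds KEAP1. The small MAF genes, whose products pair with NRF2 on DNA, were all called, with MAFG at 10.2, 18.3 and 37.8 FPKM (1.79), MAFF at 1.71 and MAFK at 1.04. NFE2L2, the gene of NRF2 itself, had 13.1, 12.3 and 13.6 FPKM (0.05), and KEAP1 had 26.3, 35.1 and 39.7 FPKM (0.58). BACH2, a repressor gene of the same family, was higher from a low level (1.504, 2.56 and 4.35 FPKM, 1.10).

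Heme and iron genes split by role, with 5 of 28 higher, 3 lower and a median of -0.19. Degradation and storage genes were higher. BLVRB, which reduces biliverdin, had 1.52, 5.30 and 13.2 FPKM (2.50). ALAS1, the first enzyme of heme synthesis, was also higher (1.24). The transferrin receptor gene TFRC, for iron import, had 25.03, 17.7 and 10.4 FPKM (-1.19), and STEAP3, a ferrireductase gene of the same route, was lower (-1.07).

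Metal and arsenic handling genes had 8 of 24 considered members higher and 1 lower, with a median of 0.21. Of the 8, 6 were metallothionein genes, including MT1F with 0.0760, 3.03 and 5.06 FPKM (2.49), and MT1M, which was listed at 0 in the control and at 2.63 FPKM at 4 µM. These near-identical genes may share reads. All of the 6 but MT2A, and also ABCC2, were under 1 FPKM in the control and passed the filter only through the ATO libraries. Another 7 listed genes in the table lay below the filter, so the count and the median depend on it. The others were the zinc exporter gene SLC30A1, with 10.3, 16.4 and 31.4 FPKM (1.52), and the efflux pump gene ABCC2 (0.556, 1.33 and 2.18 FPKM, 1.03). AS3MT, which encodes the arsenite methyltransferase, had 11.3, 9.35 and 4.59 FPKM (-1.14). MTF1, the metal-sensing factor gene, had 0.20.

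Protein folding genes past the rule included HSP70, J-domain and small heat shock genes. Of 27 HSP70, HSP90 and HSF genes 6 were higher and 2 lower, with a median of 0.38. HSPA1A had 42.6, 101 and 344 FPKM (2.98), though it and HSPA1B are near-identical copies. HSPH1, an HSP70 exchange factor gene, had 15.6, 25.7 and 36.6 FPKM (1.18). HSPA9, the mitochondrial HSP70 gene, was higher (1.11) and TRAP1, the mitochondrial HSP90 gene, lower (-1.28). HSF1 itself had 11.8, 12.9 and 11.8 FPKM.

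Among 30 J-domain genes, whose products hand clients to HSP70, 4 were higher and 0 lower, including DNAJB9 of the endoplasmic reticulum (1.25). DNAJB4 had 6.38, 15.9 and 32.0 FPKM (2.16), DNAJB1 6.36, 10.1 and 20.9 FPKM (1.57) and DNAJA1 87.4, 132 and 186 FPKM (1.08). Of 12 small heat shock and BAG genes 3 were higher, namely HSPB8 (2.32), BAG3 (2.22) and HSPB1 (1.22), and the muscle-associated HSPB7 was lower (-1.35). The CCT chaperonin and prefoldin list, which folds actin and tubulin, had 0 of 20 past the rule in either direction and a median of -0.06. Endoplasmic reticulum folding genes had 3 of 31 higher and 1 lower (median 0.03), and the chaperone gene HSPA5 had 149, 108 and 155 FPKM.

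Each of 32 proteasome core and cap subunit genes had a log2 fold above 0, with a lowest value of 0.05, a median of 0.70 and 5 higher by the rule. ADRM1, a ubiquitin receptor of the cap, had 40.4, 87.5 and 111 FPKM (1.44), and PSMD2 had 66.5, 125 and 195 FPKM (1.54). The 12 considered assembly factor and activator genes had a median of -0.18 with 0 called, and the difference between these lists was not tested. The ubiquitin and p97 list had 5 of 30 higher, among them ZFAND2A, known as an arsenite-inducible gene, with 2.72, 5.98 and 17.6 FPKM (2.32), and VCP, the p97 ATPase gene, with 51.8, 90.6 and 119 FPKM (1.18).

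Of 38 autophagy genes 7 were higher and 0 lower, with a median of 0.36. Among the 7, MAP1LC3B2 had 0.360 FPKM in the control and passed the filter only through the ATO libraries. SQSTM1, the p62 cargo receptor gene, had 18.9, 62.4 and 134 FPKM (2.77), and GABARAPL1 had 5.28, 13.4 and 30.7 FPKM (2.34). The mitophagy receptor genes BNIP3 (1.30) and BNIP3L (1.11) were called as well. The lysosome and v-ATPase list had 9 of 40 higher, 2 lower and a median of 0.53. CTSL, cathepsin L, had 5.79, 14.6 and 28.7 FPKM (2.13), and GLA, MCOLN1 and TPP1 had 1.45, 1.26 and 1.30. CTSF (-1.27) and the v-ATPase gene ATP6V0E2 (-1.36) were lower, whereas ATP6V0E1, its paralog, had 36.4, 68.1 and 82.5 FPKM (1.16). Beside these, CD68, a lysosomal protein gene used as a leukocyte marker, had 0.534, 3.69 and 4.87 FPKM. It was the only leukocyte marker of 4 in the table to pass the filter. PTPRC was at most 0.0975 FPKM and LYZ at most 0.375 FPKM.

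Genes past the rule included integrated stress response factors and genes of amino acid supply and tRNA charging. Of 21 integrated stress response kinase and factor genes 9 were higher and 0 lower, with a median of 0.78. Among the 9, NUPR1 had 0.573 FPKM in the control and passed the filter only through the ATO libraries. PPP1R15A, which directs dephosphorylation of eIF2α, had 11.5, 25.6 and 80.3 FPKM (2.70), and DDIT3, the gene of CHOP, had 6.22, 11.7 and 29.7 FPKM (2.09). ATF5 had 1.98 and CEBPB 1.84. ATF4, controlled largely at translation, had 0.85, and the kinase genes EIF2AK1 and EIF2AK3 had -0.15 and 0.25.

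In amino acid synthesis and one-carbon metabolism 8 of 20 genes were higher and 2 lower, with a median of 0.90. ASNS, asparagine synthetase, had 13.3, 36.1 and 66.2 FPKM (2.23). The serine route was called at each of its 3 enzymes, PHGDH (1.33), PSAT1 (1.43) and PSPH (1.19), and at SHMT2, at 29.2, 54.0 and 84.4 FPKM (1.5003). The proline route went the other way, with ALDH18A1 at 43.5, 34.3 and 17.2 FPKM (-1.29) and PYCR3 at -1.14. Amino acid transporter genes had 6 of 19 considered higher and 1 lower. SLC7A5 had 47.6, 79.3 and 150 FPKM (1.63) and SLC1A4 had 1.81, while SLC7A2, an arginine and lysine transporter gene, was lower (-1.69).

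Cytosolic and mitochondrial aminoacyl-tRNA synthetases had medians of opposite sign, 0.49 over 20 genes and -0.39 over 17. WARS1 had 16.6, 36.9 and 82.6 FPKM (2.25), followed by GARS1 (1.602), SARS1 (1.59), CARS1 (1.29) and MARS1 (1.21). FARSB was the cytosolic member that was lower (-1.03). Of the mitochondrial genes 0 were higher and AARS2 was lower (-1.10). Both medians kept their side of the all-row median in every scaling, pseudocount and filter tried. SESN2, a sestrin that restrains the kinase complex mTORC1, had 4.66, 8.60 and 38.7 FPKM (2.81), and DEPTOR, another inhibitor of it, had 35.5, 26.7 and 12.1 FPKM (-1.48). They were the called genes of 17 mTORC1 brakes, 5.88% each way beside 4.19% higher and 5.27% lower of all rows.

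Secreted stress factors and cytokines had the highest median of the lists with at least 8 considered genes, 0.94 over 17, with 8 higher and 0 lower. The list also held the receptor genes PLAUR and TNFRSF12A, the latter among the 8, so its values are not of secreted factors only. GDF15 had 1.08, 18.1 and 94.5 FPKM (5.52). STC2, stanniocalcin 2, had 17.5, 22.0 and 59.6 FPKM (1.71), VEGFA had 6.52, 7.09 and 16.3 FPKM (1.20) and HBEGF, an EGF receptor ligand gene, had 5.57, 12.9 and 16.8 FPKM (1.44). VEGFA and STC2 were thus close to control at 2 µM, while HBEGF was not. CXCL8, interleukin 8, had 0.382, 2.25 and 2.23 FPKM (1.22). CXCL8 and IL11 were under 1 FPKM in the control and passed the filter only through the treated libraries. Another 13 listed genes lay below the filter and are not in these counts.

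Growth and early response genes were called in a few members of each list. Of 9 FOS and JUN family genes FOSL1 and FOSL2 (1.37) were higher, JUN had 18.6, 24.8 and 37.0 FPKM (0.96), and FOS had -0.20. Among 17 MAPK phosphatase and Sprouty genes DUSP5, which acts on ERK, had 2.45, 5.57 and 15.6 FPKM (2.27), DUSP3 had 1.37, and SPRY1 was lower (-1.15). Of 25 early growth response and KLF genes 5 were higher and 1 lower. In the actin list 4 of 37 were higher, among them FLNC, CCN2 (1.20) and ZYX, which had 68.4, 138 and 148 FPKM (1.10).

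Among cell cycle arrest and death genes a few members passed the rule. CDKN1A, which encodes the CDK inhibitor p21, had 4.93, 15.8 and 46.6 FPKM (3.01). It was the called gene of 7 considered CDK inhibitors, whose median was -0.15. Of 32 cyclin, CDK, RB and E2F genes 0 were higher, and E2F2 and E2F8 were lower (both -1.03), 6.25% beside 5.27% of all rows. CCND1, cyclin D1, had 328, 275 and 199 FPKM (-0.72). Among 19 death receptor and caspase genes TNFRSF10B (1.63), TNFRSF1A (1.33) and CASP4 (1.18) were higher. In the BCL2 family MCL1 (1.07) was higher and BCL2 (-1.12) lower, both of them anti-apoptotic. The pro-apoptotic BMF had 32.5, 11.5 and 7.03 FPKM (-2.06). PMAIP1, which encodes the pro-apoptotic NOXA, had 5.17, 10.2 and 20.0 FPKM (1.77).

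Ribosome biogenesis and nucleotide synthesis had medians below that of all rows, with few members past the rule. Ribosome biogenesis had 6 of 58 lower, 0 higher, 53 below 0 and a median of -0.54. UTP20, MYBBP1A and POLR1B had -1.14, -1.07 and -1.05, and NPM1, nucleophosmin, had 144, 116 and 71.3 FPKM (-1.003). Purine and pyrimidine synthesis had 6 of 28 lower and a median of -0.57. PFAS had 15.2, 9.48 and 4.54 FPKM (-1.55), IMPDH2 21.2, 15.3 and 8.87 FPKM (-1.17) and PAICS 46.2, 36.8 and 20.1 FPKM (-1.16), and CAD, which starts pyrimidine synthesis, 28.9, 16.5 and 7.74 FPKM (-1.78), so steps of both routes were lower. Polyamine genes split, with the catabolic genes SAT1 and SMOX (2.42, 7.34 and 16.04 FPKM, 2.32) higher and the spermidine synthase gene SRM lower (-1.04).

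Mitochondrial ribosomal protein genes had 6 of 70 lower, 0 higher and a median of -0.33. MRPL24 had 23.0, 17.5 and 6.98 FPKM (-1.59), while MRPL12, at 46.4, 46.5 and 19.9 FPKM (-1.18), was at control level at 2 µM. Coenzyme Q synthesis had a median of -0.60 over 12 genes with 0 lower by the rule, and COQ10B was higher (1.40). With the filter raised to 10 FPKM, COQ10B alone remained (mean 11.4 FPKM). The list then lay above the median of all rows by 1.47, which is the value of that gene and not of the route. Cholesterol and fatty acid synthesis had 5 of 34 lower and 0 higher (median -0.49), including FASN at 67.2, 46.3 and 30.1 FPKM (-1.13) and SCAP, the sterol sensor of SREBP, at -1.28. Homologous recombination, Fanconi and mismatch repair genes had 30 of 33 below 0, beside 59.9% of all rows. The 1 called was PALB2 (-1.12), so that 3.03% were lower, beside 5.27% of all rows. Among 42 SR protein and hnRNP genes HNRNPD (42.9, 34.0 and 15.8 FPKM, -1.38) and HNRNPDL (-1.10) were lower. That was 4.76%, near the share of all rows.

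Of 21 considered adrenergic transcription factors, which maintain sympathetic identity, 9 were lower and 0 higher, with a median of -0.89. HAND1 had 106, 52.8 and 18.6 FPKM (-2.44) and PHOX2A 136, 76.3 and 25.3 FPKM (-2.38). TFAP2B had 16.7, 10.5 and 5.10 FPKM (-1.54), and GATA2 had 64.8, 45.9 and 29.96 FPKM (-1.09). In each of these 4 genes the 2 µM value lay between the control and 4 µM values, as in 634 of the 655 lower rows. INSM2 was at 14.7 FPKM in the control and 15.5 at 2 µM, and at 6.82 at 4 µM (-1.003). SOX11 was one of 3 members above 0, at 19.1, 18.2 and 21.3 FPKM (0.15). In bulk RNA, fewer cells of a type and less of a transcript per cell cannot be told apart.

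Some genes of catecholamine handling and of secretory granules passed the rule. Of 10 considered catecholamine genes 4 were lower, SLC6A2 (-2.25), TH, which encodes the rate-limiting enzyme, at 14.7, 7.94 and 4.71 FPKM (-1.46), DBH (-1.26) and DDC, at 104, 74.7 and 43.4 FPKM (-1.25). Secretory granule and neuropeptide genes had 4 of 17 considered lower and a median of -0.76. SYT4, a granule synaptotagmin gene, had 9.12, 2.29 and 1.10 FPKM (-2.27), SCG2 had 234, 116 and 58.1 FPKM (-1.99) and NMU, neuromedin U, had 5.02, 3.44 and 0.963 FPKM (-1.62). With no filter on low values the median of that list no longer lay below that of all rows.

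The receptor and channel lists had 0 higher members. Of 23 considered neurotransmitter and peptide receptors 9 were lower (median -0.61). CHRM2, a muscarinic receptor gene, had 17.2, 7.68 and 4.13 FPKM (-1.83), and the ganglionic nicotinic subunit genes CHRNA3 and CHRNB4 had 18.997, 10.6 and 6.24 FPKM (-1.47) and 3.70, 1.31 and 0.678 FPKM (-1.49). Of 22 receptor tyrosine kinases and co-receptors 4 were lower. RET had 72.1, 32.1 and 15.7 FPKM (-2.13). Its co-receptor gene GFRA2 had 6.65, 2.56 and 0.914 FPKM (-1.998), and PDGFRB, a platelet-derived growth factor receptor gene, had 56.0, 32.2 and 25.6 FPKM (-1.10). Of 21 considered voltage-gated channels 3 were lower, led by KCNH2 with 76.8, 45.8 and 18.0 FPKM (-2.04).

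Developmental signalling lists had a few members lower. The Notch list had 2 of 16 considered lower, HES1 (-1.12) and LFNG (-1.28), with a median of -0.08, above that of all rows. Of 24 considered Wnt pathway genes 4 were lower, LGR5 (-2.94), DKK2, at 19.7, 9.32 and 4.04 FPKM (-2.04), SFRP1, at 159, 91.9 and 54.1 FPKM (-1.54), and DKK1; apart from LGR5 these are secreted antagonists. Each of the 7 considered Hedgehog genes was below 0, with the co-receptor genes BOC (-1.31) and CDON (-1.18) called. In the TGF-beta and BMP list TGFB3 had 6.16, 1.498 and 0.864 FPKM (-1.94), 3 more of 36 were lower, and SKIL, a repressor of SMAD signalling, was higher (1.13). The IGF axis had 4 of 16 lower, all binding protein genes or relatives of them, with STC2 the 1 higher member. Among the lower ones IGFBP4 had 41.8, 22.9 and 12.7 FPKM (-1.65). Axon guidance had 6 of 40 lower, with PLXNA4 at 42.0, 19.2 and 14.3 FPKM (-1.49) and UNC5C at 61.6, 39.2 and 26.5 FPKM (-1.19).

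Axon and synapse genes went both ways, with 7 of 39 higher, 6 lower and a median of -0.12. The higher members included microtubule-associated protein genes, MAP1A at 15.5, 30.2 and 70.2 FPKM (2.11), MAP1B at 122, 127 and 267 FPKM (1.12) and MAP2 (1.01), and the syntaxin gene STX1A (1.70). The lower members included the adhesion gene CNTN1 (-1.98) and the stathmin genes STMN3 (-1.53) and STMN2, at 241, 142 and 95.8 FPKM (-1.32). Extracellular matrix genes had 9 of 49 considered lower and 1 higher (median -0.46). THBS1 had 29.7, 17.6 and 10.3 FPKM (-1.44) and ADAMTS3 19.1, 9.62 and 5.28 FPKM (-1.67), and TNC, tenascin C, was the higher member, at 2.03, 2.79 and 9.76 FPKM (1.83).

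Markers of the labelled cell type were present, and those of fibroblasts were too. The 11 sympathetic markers each passed the filter and summed to 684, 445 and 252 FPKM, with 9 lower. Of 5 fibroblast markers 4 passed the filter and were lower, and the list summed to 121, 71.2 and 34.2 FPKM, while COL1A2 was at most 0.597 FPKM in any library. The 4 lower fibroblast markers are also members of the matrix list, and 7 sympathetic markers are also in the adrenergic and catecholamine lists. The part of either cell type in those results was not tested. Schwann markers summed to at most 2.46 FPKM, endothelial markers to at most 2.47 FPKM and epithelial markers to at most 2.66 FPKM, with CDH1 at 0 in the control and at 2 µM.

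**Figure D4:**
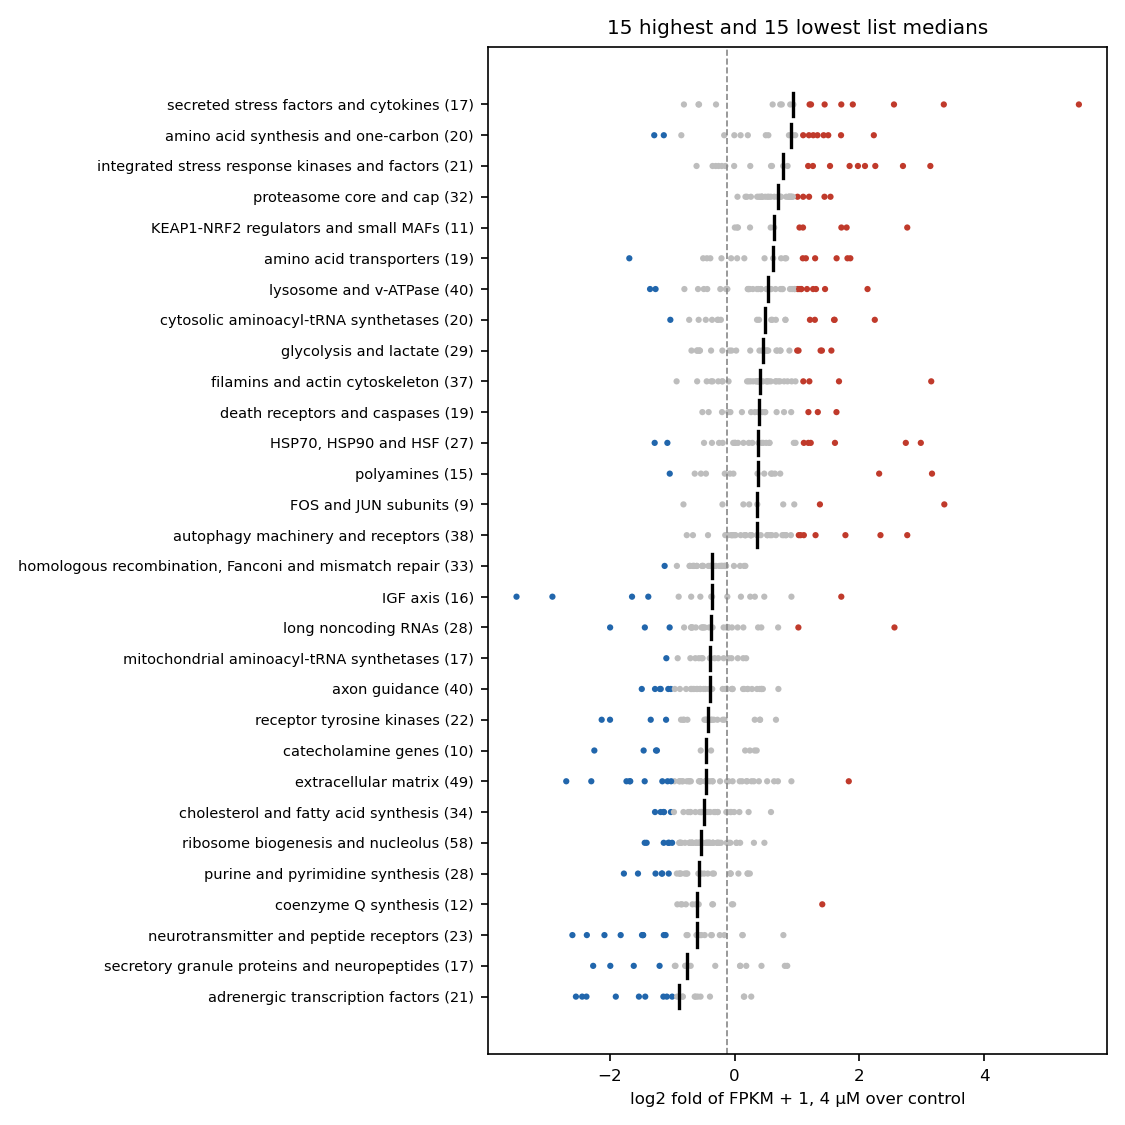
Each point is the log2 fold of 1 considered gene at 4 µM over control (x), by list (y, number of considered genes in brackets), for the 15 lists with the highest and the 15 with the lowest medians among lists of at least 8; red and blue mark genes past the size rule, black bars the list median and the dashed line the median of all rows (-0.13). The list of secreted stress factors and cytokines stands at the top (0.94) and adrenergic transcription factors at the bottom (-0.89). Marker lists are not drawn.

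SUMO and PML body genes, of interest because arsenic is known to act on the PML protein, had 0 of 21 past the rule and a median of -0.17. Translation factors had 1 of 43 higher, EIF1, and a median of -0.15, and telomere genes 0 of 12 and -0.27. The 47 polycomb, trithorax and demethylase genes had a median of 0.06 with 1 higher, and 15 tubulin genes -0.17 with TUBA4A higher (1.38). Glycolysis and hypoxia lists had medians above that of all rows. Glycolysis genes had 5 of 29 higher (median 0.46), among them the hexokinase genes HK1, at 49.1, 72.8 and 129 FPKM (1.38), and HK2 (1.00). Hypoxia targets had 7 of 27 higher and 2 lower (median 0.35), with BHLHE40 at 1.58, 4.04 and 10.7 FPKM (2.18) and EGLN3, an oxygen-sensing hydroxylase gene, lower (-1.20).

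The motif shares in promoter windows are a description of letters and not of binding. Of 11092 named genes considered, 9087 had at least 1 RefSeq window. Windows of 1 gene overlap, so they are not independent. AP-1 sites (TGANTCA) were in 11.8% of 527 windows of higher genes, 4.67% of 685 windows of lower genes, 4.35% of 12066 windows of the other considered genes and 7.71% of all 35116 windows. The antioxidant response core was in 17.6%, 13.1%, 14.4% and 13.3% of these sets. The E-box was in 7.97%, 10.9%, 9.55% and 7.26%, the ATF4 and C/EBP letters in 3.80%, 2.34%, 1.79% and 3.62%, and the heat shock element in 0.949%, 0%, 0.290% and 0.490%. The metal response core, a short and frequent motif, was in 34.7%, 33.9%, 37.8% and 29.6%. The AP-1 share of higher genes was thus above each of the other 3 sets, while the metal response share was below that of the other considered genes.

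**Figure D5:**
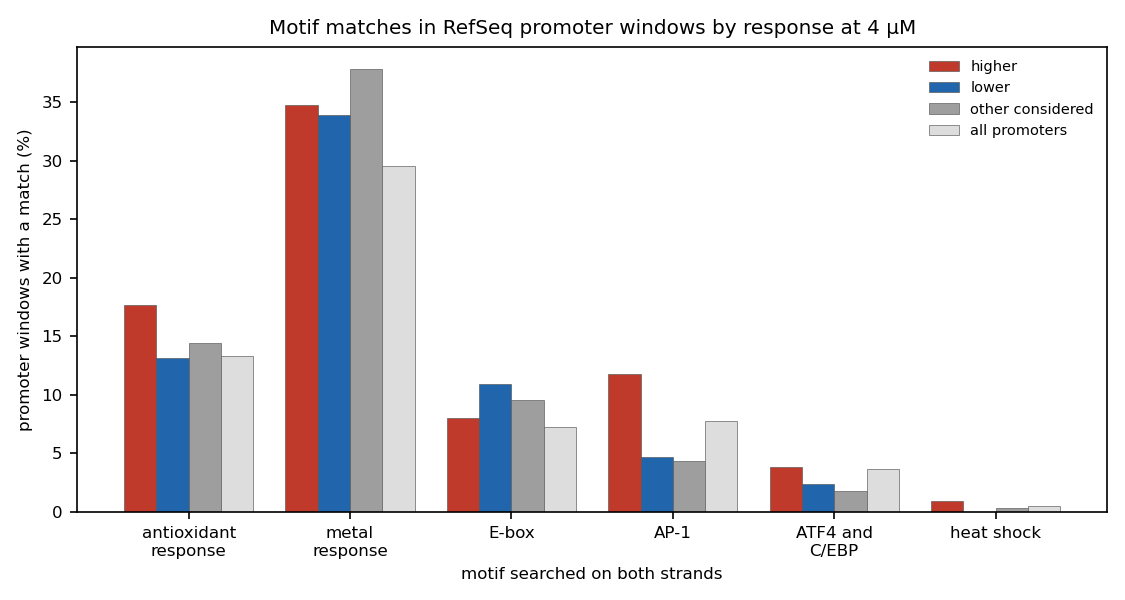
Bars give the percentage of RefSeq promoter windows of 300 bases with at least 1 match on either strand, by motif (x), for windows of higher, lower and other considered genes and for all windows in the table. For AP-1 the 4 bars stand at 11.8%, 4.67%, 4.35% and 7.71%.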

How the data were processed

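Per the labels' protocols, 1.3 µg of total RNA went into each paired-end TruSeq library. The authors deposited FPKM values per gene and library, per the file headers, and no source used here names the aligner or counter. GRCm38 and mm10, both mouse, are the builds in the submitters' processing notes, yet gene symbols are human, so no coordinates were taken from the table. Low FPKM values times GENCODE 29 transcript length, for genes with 1 transcript there and with lengths that may not be the authors', had most frequent values of 0.028, 0.0272 and 0.0282 in the control, 2 µM and 4 µM libraries, which puts relative depths at 1, 1.03 and 0.993. Only 29.2% to 30.5% of low values were whole multiples within 0.05, so reads were not recovered, absolute depth is unknown and no counting interval is given.

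Log2 folds are of FPKM + 1, which understates low genes, and were computed with pandas 2.3.3 and numpy 2.4.6. Of rows that share a name (359 in all), lists used the one with the highest mean. The 72 lists were matched by symbol or older symbol. Members and lists were chosen with earlier results of these data known. Genes named were the given markers, ranks 13 to 40, the 12 largest gains and losses, list or family members past the rule or among the 4 largest, and rows beside each threshold; other genes, such as NFE2L2, KEAP1, HSF1, GCLC, SOX11 and HSPA5, were picked with their values in view. Rows without a symbol, read-through rows, pseudogenes and small RNAs were counted and not named. Some genes are counted in their lists but not reported here. The size rule was tested on simulated data before use. Pseudocounts, filters, row classes and scalings were varied.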

Additional observations from a re-analysis of the deposited data

How the results depend on the processing

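The 521 higher and 655 lower rows, 1176 in all, depended on the settings. With a pseudocount of 0.1 there were 1192 lower rows and 1949 in all, and with 5 there were 219 higher, 171 lower and 390 in all. A mean of at least 10 FPKM left 260 higher, 214 lower and 474 in all, fewer since only 4276 rows remained. Rescaled to TPM, 793 rows were higher and 943 lower, 1736 in all. The pseudocount of 1 was then added to TPM values, which were larger than the FPKM values, since the FPKM sum of the control was 256459. It thus damped low rows less, while the scaling factor of 4 µM over control was 0.963. The part of each in the rise was not tested. The share of called rows that were higher was 44.3% as reported, 59.7% with median-of-ratios scaling, 56.2% with a pseudocount of 5 and 54.9% at a mean of at least 10 FPKM. Less the median of all rows, the lists of metal and arsenic handling (-0.084) and polyamines (-0.0071) reversed at a mean of at least 10 FPKM. Mesenchymal state factors (-0.32) and coenzyme Q synthesis (1.47, then COQ10B alone) did so too. With no filter, secretory granule genes (0.0031) and Schwann markers (-0.19) reversed. For lists other than coenzyme Q synthesis the cause was not tested. With median-of-ratios scaling MT-CO2, MT-ND4 and MT-ND4L had log2 folds of 0.015, 0.029 and 0.10, and MT-ND4L had 0.0063 as TPM. No paired analysis was possible because each group had 1 library, and none could be left out.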

Other observations

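Grouping named genes by the letters their symbols share gave 132 families of at least 10 considered genes, and the families described here were picked after their values were seen. ZNF zinc finger genes, the largest family with 392 members, had 6 higher and 2 lower and a median of -0.0028. These shares, 1.53% and 0.51%, were below the 4.19% and 5.27% of all rows. The higher ones were led by ZNF697, with 3.83, 7.02 and 14.0 FPKM in the control, 2 µM and 4 µM libraries (log2 fold 1.64), and ZNF503 (1.31), and the lower ones were ZNF608 (-1.26) and ZNF512B (-1.16). Solute carrier (SLC) genes had 12 higher and 13 lower of 178, 6.74% and 7.30%, beside 4.19% and 5.27% of all rows. Lower members included the nucleoside transporter genes SLC29A1, with 15.2, 6.79 and 3.10 FPKM (-1.98), and SLC29A2 (-1.45), the folate carrier gene SLC19A1 (-1.09) and the multivitamin transporter gene SLC5A6 (-1.14).

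Genes with interleukin symbols had 5 higher and 2 lower of 17 and a median of 0.76. IL33 had 2.52, 8.02 and 13.8 FPKM (2.07), the receptor gene IL6R had 0.296, 1.62 and 3.85 FPKM (1.90), and IL20RB had 0.373, 0.805 and 2.97 FPKM (1.53). IL6R, IL20RB and IL11 were under 1 FPKM in the control and passed the filter only through the ATO libraries, so the count and median depend on it. IL13RA2 was abundant, at 149, 212 and 300.2 FPKM (1.01), and IL7 was lower (-1.004). Symbols of RAB and a digit had 5 higher and 1 lower of 56. Not all are GTPase genes, and the higher ones include RAB5IF (1.30), which is not. RAB3B, also among the higher ones, had 0.615 FPKM in the control and passed the filter only through the 4 µM library. The late endosome GTPase gene RAB7A had 31.6, 47.9 and 67.8 FPKM (1.08), and the synaptic vesicle gene RAB3A was lower (-1.17). The symbol families USP (43 genes), RPS (42), UBE (37) and MED (29) had 0 members past the rule in either direction. Shared letters do not place every member in 1 protein class, so RPS is not only ribosomal proteins and UBE not only ubiquitin-conjugating enzymes. No test was made for any of these families, since each group had 1 library.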
